A study of Mus musculus with 4 samples.

Results

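Connexins and their gap junction partners were followed by RNA-seq in mouse embryonic fibroblasts (MEFs). They were taken as 8 genes, namely the connexin genes *Gja1*, *Gja4*, *Gja5*, *Gjb2* and *Gjc1*, the pannexin genes *Panx1* and *Panx3*, and the scaffold gene *Tjp1*. All 8 were found by symbol among the 24391 genes of the count table. The set was selected on measured values of these same libraries, the differences of these genes between *Phf2* KO and WT and the share of connexin counts taken by *Gja1*. Those values are therefore given as a description, and no p-value is printed for them. Tests are given for further genes of the pathway, whose lists were drawn up with earlier results of these data known. They are also given for the contrast between replicate numbers, which the choice of the 8 genes did not use.

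Gap junctions are patches of channels that join the cytoplasm of neighbouring cells and let ions and small metabolites pass between them. Each channel is assembled from connexins contributed by both cells, and the connexin encoded by *Gja1* is the best known in fibroblasts. Pannexins resemble connexins in shape but mostly form channels to the outside, through which ATP leaves the cell to act on purinergic receptors. The scaffold protein encoded by *Tjp1* binds the tail of the *Gja1* connexin at the rim of the patch and also links tight and adherens junctions to actin.

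There were 4 libraries from primary MEFs of E13.5 embryos, 2 from WT and 2 from *Phf2* KO cells, with replicates 1 and 2 in each group. The genotype label is *Phf2* flox/flox, ERCre/+ for all 4 libraries, so the WT cells also carried the floxed alleles and the Cre. The label Tamoxifen is on the *Phf2* KO libraries alone, and the WT libraries are described as having had none. The Cre recombinase, CreERT2, was expressed from the *Rosa26* locus and enters the nucleus once 4-hydroxytamoxifen (4-OHT) is bound, and the protocol for the deletion gives 0.5 µM 4-OHT for 7 days in quiescent cells. Loss of Phf2, active Cre and 4-OHT came together in these libraries and cannot be told apart. The labels do not name the embryos behind the replicates, and p-values measure the spread between these samples.

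The libraries held between 21094743 and 26094268 counts. *Phf2*, the targeted gene, had 3244 and 3680 counts in the WT libraries against 1454 and 2158 in *Phf2* KO, so that 57.9% of its normalised WT level remained. The 9 fibroblast markers, with *Col1a1* the most abundant, were all detected and together took between 57190.2 and 68857 CPM (TMM-scaled counts relative to library size). The 12 macrophage markers, with *Lyz2* the most abundant, took 3378 and 3904 CPM in the libraries numbered 1 and 747 and 1179 CPM in those numbered 2. The replicate numbers also differed in sex, so that the replicates of a group did not come from the same embryo. *Xist*, the RNA of the inactive X chromosome, had 10042 and 8336 counts in replicates 1 against 3 and 12 in replicates 2, while the Y-linked genes *Ddx3y* and *Eif2s3y* were almost absent from replicates 1. Values within each replicate number are therefore given beside those over all libraries. In such bulk libraries, fewer cells of a type and less RNA per cell cannot be told apart.

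The promoters of *Gja1* and *Tjp1* are shown because these were, of the 5 genes with enough counts to be tested, the 2 that lay lower in both *Phf2* KO libraries than in both WT libraries. Each sequence holds the 250 bases before the transcription start, 5′ to 3′ on the strand of the gene, from RefSeq on GRCm38.p6. They span chr10:56377050-56377299 on the forward strand for *Gja1* and chr7:65371245-65371494 on the reverse strand for *Tjp1*. Capitals mark the AP-1 motif (TGANTCA) and the GC box of the SP1 family (GGGCGG), both searched on both strands.
Gja1: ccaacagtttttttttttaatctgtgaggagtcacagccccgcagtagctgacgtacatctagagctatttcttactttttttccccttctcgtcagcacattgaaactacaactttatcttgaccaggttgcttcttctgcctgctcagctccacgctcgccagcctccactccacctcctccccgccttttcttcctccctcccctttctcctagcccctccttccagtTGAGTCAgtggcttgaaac
Tjp1: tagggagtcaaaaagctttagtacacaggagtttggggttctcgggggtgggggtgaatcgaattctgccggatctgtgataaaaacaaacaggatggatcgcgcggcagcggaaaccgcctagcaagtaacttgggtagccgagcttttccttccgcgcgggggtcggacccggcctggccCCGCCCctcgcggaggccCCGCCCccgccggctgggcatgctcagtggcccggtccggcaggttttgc
The *Gja1* promoter held 1 AP-1 motif, which began 19 bases before the start, and 0 GC boxes. The *Tjp1* promoter held 2 GC boxes, printed as their reverse complement, which began 68 and 50 bases before the start, and 0 AP-1 motifs. Of 32851 RefSeq promoters of this length, 6.75% held the AP-1 motif and 32.7% the GC box. A match describes the letters of the window and not a bound site.

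The levels of the 8 genes were first compared per kilobase of exon, the only scale here on which different genes can be set side by side. *Gja1* was the most abundant, between 18.6 and 38.7 CPM per kb over the 4 libraries, followed by *Tjp1* between 9.97 and 12.6. *Panx1* (between 3.16 and 4.43) and *Gjc1* (between 2.83 and 3.41) followed, and their ranges overlapped, so that their order did not stand out from the spread. *Gjb2* lay between 0.225 and 0.465 CPM per kb. *Gja4* (between 0 and 0.148), *Panx3* (between 0.0313 and 0.0936) and *Gja5* (between 0 and 0.0134) were at or near the limit of detection, and the ranges of *Gja4* and *Panx3* overlapped. All other neighbours in this order had separate ranges. Of the 8 genes, 5 had enough counts to be tested (*Gja1*, *Tjp1*, *Gjc1*, *Panx1* and *Gjb2*), among 13668 genes in all.

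**Figure D1:**
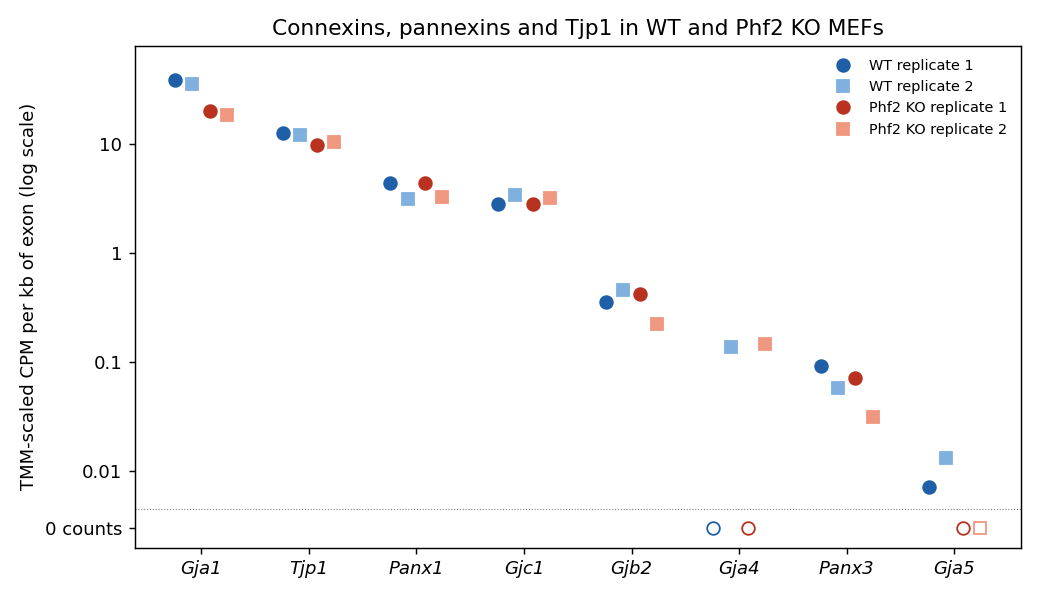
Level of each of the 8 genes in each library, in TMM-scaled CPM per kb of exon on a log axis, with libraries at 0 counts drawn as open symbols under the dotted line. *Gja1* lay highest in every library, at a mean of 37.2 CPM per kb in WT and 19.3 CPM per kb in *Phf2* KO, while *Gja4* was counted in the libraries numbered 2 alone.

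*Gja1* encodes the connexin for which gap junctions of fibroblasts, heart and many other tissues are best known. It was counted 2895 times in WT replicate 1, 2883 times in WT replicate 2, 1290 times in *Phf2* KO replicate 1 and 1387 times in *Phf2* KO replicate 2. Normalised, *Gja1* stood at 120.1 and 111.1 CPM in WT against 62.3 and 57.7 CPM in *Phf2* KO. Both *Phf2* KO libraries lay below both WT libraries, and the libraries of each group lay close together. The WT mean was 115.6 ± 6.37 CPM (SD, n = 2) and the *Phf2* KO mean 60.0 ± 3.23 CPM (SD, n = 2), or 51.9% of WT. The fitted log2 fold change was -0.95 ± 0.089 (SE). It was -0.94 between the libraries numbered 1 and -0.94 between those numbered 2, and leaving out any library moved it no further than -1.0 or -0.88. *Gja1* lies on the forward strand of mm9 chromosome 10, between 56097106 and 56110225, with 2 exons, and no other annotated gene overlaps it. Of the 9 fibroblast markers, 4 lay lower in both *Phf2* KO libraries than in both WT libraries, against 18.0% of all genes tested. In the other direction there were 0, against 15.5%. Their median log2 fold change was -0.09, with 3 above 0 and 6 below. The lowest value was that of *Lum* (-0.75), the gene of a small proteoglycan. The 9 markers summed to 61562 and 68857 CPM in WT against 58665 and 57190.2 CPM in *Phf2* KO. Their part in the *Gja1* difference was not tested.

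*Gjc1*, which encodes a connexin of the embryonic heart and of vascular smooth muscle, was the other connexin with a clear level. It had 341 and 443 counts in the WT libraries against 297 and 386 in *Phf2* KO, or 14.1, 17.1, 14.3 and 16.1 CPM. The groups overlapped, and the library numbered 2 was the higher in each. The log2 fold change was -0.04 ± 0.15 (SE), with 0.02 between the libraries numbered 1 and -0.09 between those numbered 2. *Gjc1* lies on the reverse strand of mm9 chromosome 11, between 102660893 and 102681014. The 6 cardiac muscle markers, with *Tnnt2* the most abundant and *Myh6* at 0 throughout, summed to between 17.3 and 29.8 CPM.

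*Gjb2* encodes a connexin of epithelia and of the inner ear, and it had 21 and 29 counts in the WT libraries against 21 and 13 in *Phf2* KO. The groups overlapped. Its log2 fold change of -0.37 ± 0.44 (SE) rested on *Phf2* KO replicate 2, since it was 0.025 without that library and -0.87 without *Phf2* KO replicate 1. Epithelial markers, of which *Krt19* was the most abundant, were scarce, with summed levels between 3.61 and 4.95 CPM over 9 genes. *Gjb2* lies on the reverse strand of mm9 chromosome 14, between 57717437 and 57723539.

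*Gja4* and *Gja5* encode connexins of the vessel wall and, for *Gja5*, of the atria. *Gja4* was counted 0 times in both libraries numbered 1 and 6 times in each library numbered 2, in WT as in *Phf2* KO. A count of 0 allows a level of up to 0.126 CPM in WT replicate 1 and 0.142 CPM in *Phf2* KO replicate 1, taken as 3 counts and covering counting error only, against 0.231 and 0.250 CPM measured in replicates 2. The endothelial markers had the opposite order in their sum, which over 10 genes was 49.7 and 44.0 CPM in replicates 1 and 20.0 and 20.1 CPM in replicates 2, with *Vwf* the most abundant and *Tie1* and *Cldn5* at 0 throughout. The list was not uniform, since of 4 tested *Vwf* and *Kdr* were called lower in replicates 2 and *Erg* higher (log2 difference 1.37, edgeR adjusted p = 0.0295). Over all genes tested, 7.33% were called lower and 3.24% higher in replicates 2. The sum over 8 smooth muscle and pericyte markers, with *Acta2* the most abundant, was 858 and 934 CPM in replicates 1 and 1420.1 and 1272 CPM in replicates 2. Its part in the *Gja4* counts was not tested. *Gja5* had 1 and 2 counts in WT against 0 in both *Phf2* KO libraries, all within the limit that a count of 0 allows, and no difference was detectable at this depth. *Gja4* lies on the reverse strand of mm9 chromosome 4, between 126988665 and 126991283. *Gja5* lies on the forward strand of mm9 chromosome 3, between 96708616 and 96881339. It shares 165 exonic bases with *Gpr89* on the opposite strand.

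Tests of further genes used the quasi-likelihood test of edgeR, with Benjamini-Hochberg adjustment over all genes tested. The table holds 15 further connexin genes, among them *Gjc3*, which is known from glia and had enough counts to be tested. *Gjc3* was counted 38, 25, 35 and 39 times, and its log2 fold change of 0.38 ± 0.35 (SE; edgeR adjusted p = 0.999) was close to its standard error. The 6 neural markers, glial ones among them and *Nes* the most abundant, summed to between 119 and 141 CPM. *Gjb5* was counted 4, 12, 6 and 7 times. *Gja3*, *Gja6*, *Gjb6* and *Gjd4* had at most 5 counts in any library, and *Gja10*, *Gjb1*, *Gjd2*, *Gjd3* and *Gje1* had 0 in all.

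The make-up of the connexin counts, most of which were *Gja1* in every library, differed between the groups. *Gja1* held 2895 of 3382 connexin counts in WT replicate 1 (85.6%, Wilson 95% interval 84.4 to 86.7%) and 2883 of 3530 in WT replicate 2 (81.7%, Wilson 95% interval 80.4 to 82.9%). In *Phf2* KO replicate 1 it held 1290 of 1723 (74.9%, Wilson 95% interval 72.8 to 76.9%), and in *Phf2* KO replicate 2 1387 of 1945 (71.3%, Wilson 95% interval 69.3 to 73.3%). The intervals cover counting error only, and not the spread between libraries. The WT mean share was 83.6% ± 2.78 (SD, n = 2) and the *Phf2* KO mean share 73.1% ± 2.52 (SD, n = 2), which is 10.5 percentage points lower. Within each group the replicate numbered 2 had the lower share. Per kilobase of exon, the shares were 86.0% ± 2.91 (SD, n = 2) and 76.6% ± 2.45 (SD, n = 2).

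*Gjc1* took 10.1% and 12.5% of the connexin counts in WT against 17.2% and 19.8% in *Phf2* KO, without a matching difference in its own CPM. Per kilobase of exon, the *Gjc1* shares were 6.43% and 8.00% in WT against 11.2% and 12.9% in *Phf2* KO. *Gjc3* took 1.12% and 0.708% in WT against 2.03% and 2.01% in *Phf2* KO. The connexin counts other than those of *Gja1* summed to 20.2 and 24.9 CPM in WT against 20.9 and 23.2 CPM in *Phf2* KO, groups that overlapped. All connexins together summed to 140.3 and 136.0 CPM in WT against 83.2 and 80.9 CPM in *Phf2* KO, whose mean was 59.4% of that of WT. *Gja1* made up 99.1% of this difference, -55.6 of -56.1 CPM.

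**Figure D2:**
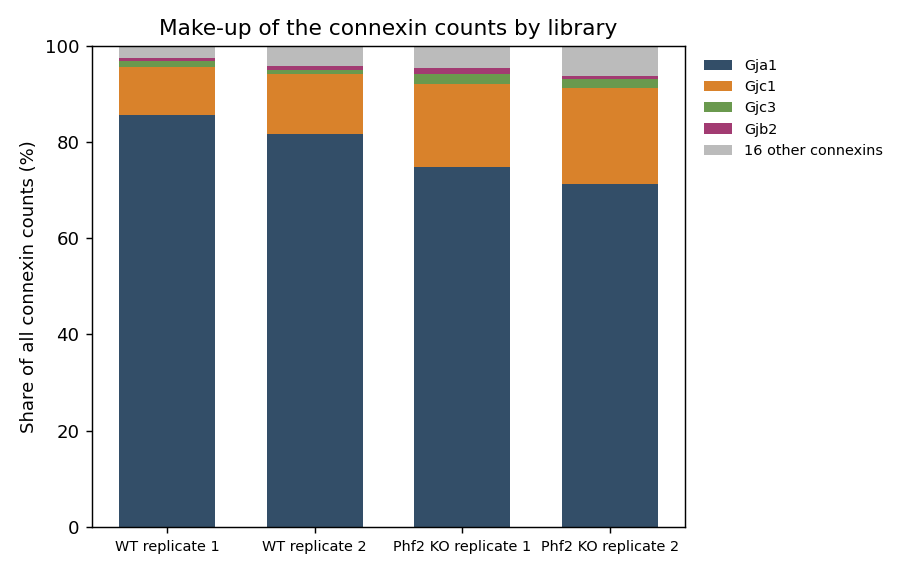
Share of all connexin counts (%) taken in each library by 4 named connexin genes and by the other 16 together, as stacked bars from 0 to 100%. *Gja1* took 85.6% and 81.7% in WT against 74.9% and 71.3% in *Phf2* KO, and the shares of *Gjc1* and *Gjc3* were larger in *Phf2* KO.

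Of the pannexins, *Panx1* encodes the widely expressed ATP release channel. It had 320 and 246 counts in the WT libraries against 275 and 236 in *Phf2* KO, or 13.3, 9.48, 13.3 and 9.82 CPM. The 2 libraries numbered 1 were alike and lay above the 2 numbered 2, while the groups overlapped. The log2 fold change between *Phf2* KO and WT was 0.02 ± 0.25 (SE), with -0.00 between the libraries numbered 1 and 0.05 between those numbered 2. *Panx3*, known from bone and cartilage, was counted 6, 4, 4 and 2 times. The 6 osteoblast markers, with *Bglap* the most abundant, summed to at most 1.37 CPM. *Panx2*, the remaining pannexin, was counted 6, 1, 1 and 0 times. *Panx1* and *Panx3* lie on the reverse strand of chromosome 9 of mm9, from 14809605 to 14849922 and from 37467487 to 37476807.

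*Tjp1*, the scaffold gene, had 2234 and 2333 counts in the WT libraries against 1521 and 1845 in *Phf2* KO. Normalised, it stood at 92.7 and 89.9 CPM in WT against 73.4 and 76.7 CPM in *Phf2* KO. Both *Phf2* KO libraries lay below both WT libraries, by a smaller step than for *Gja1*. The WT mean was 91.3 ± 1.96 CPM (SD, n = 2) and the *Phf2* KO mean 75.1 ± 2.36 CPM (SD, n = 2), or 82.2% of WT. The log2 fold change was -0.28 ± 0.076 (SE), with -0.33 between the libraries numbered 1 and -0.23 between those numbered 2. Leaving out any library moved it no further than -0.32 or -0.25. *Tjp1* lies on the reverse strand of mm9 chromosome 7, between 72441051 and 72516125, with 29 exonic blocks.

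*Tjp3* encodes another zonula occludens scaffold. It was counted 31, 7, 22 and 12 times and its fitted difference was 0.00 ± 0.84 (SE; edgeR adjusted p = 0.999). It shares 40 exonic bases with *Apba3* on the opposite strand.

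**Figure D3:**
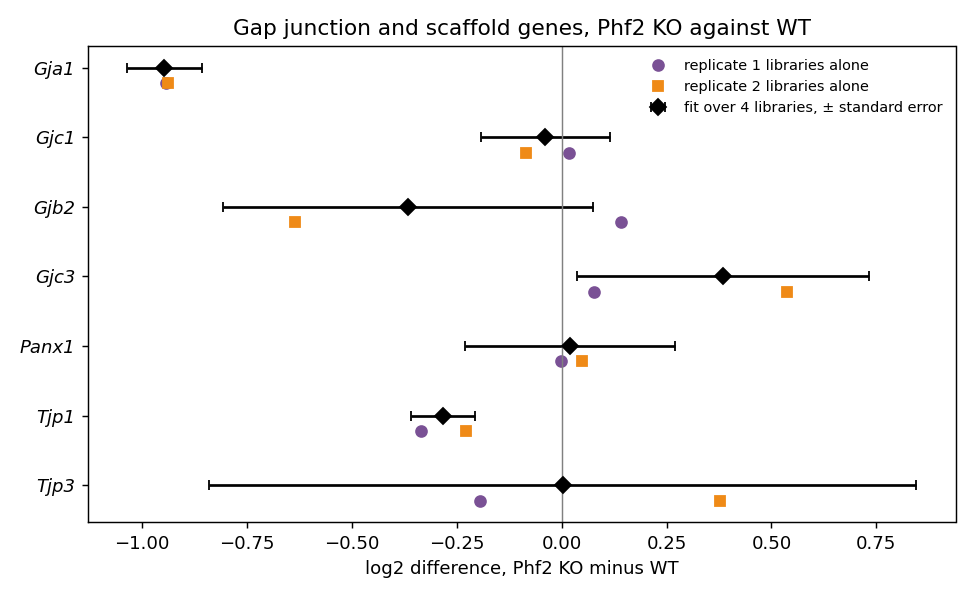
Difference between *Phf2* KO and WT on the log2 scale for connexin, pannexin and zonula occludens genes, with diamonds and bars for the fit over 4 libraries and its standard error. Circles and squares show the libraries numbered 1 or 2 alone, which for *Gja1* fell on each other at -0.94, for *Tjp1* lay at -0.33 and -0.23, and for *Gjb2* lay on opposite sides of 0.

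Counted over the set, 2 of the 5 genes tested lay lower in both *Phf2* KO libraries than in both WT libraries (*Gja1* and *Tjp1*) and 0 lay higher, against 18.0% and 15.5% of all genes tested. Their median log2 fold change was -0.28, against 0.01 over all genes tested. The quasi-likelihood test of edgeR, with Benjamini-Hochberg adjustment over all genes and a threshold of 0.1, called 0 of the 5, against 0.00732% of all genes tested (1 gene, *Dkk2*). At an unadjusted p-value under 0.05 the same test had 2 of the 5 lower, against 2.67% of all genes tested, and limma-voom with adjustment called 0. DESeq2 called 1 of the 5 (*Gja1*), against 0.4% of the genes to which it gave an adjusted p-value. Since this contrast chose the set, nothing is read from these counts.

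The 5 genes whose pattern over the 4 libraries was nearest to that of *Gja1* were found by the distance between log2 CPM values centred on their mean, among 13667 other genes. The nearest was *Col6a3*, which encodes a chain of collagen VI, at a distance of 0.0682. It had 16177 and 16763 counts in the WT libraries against 7485 and 7646 in *Phf2* KO, a log2 fold change of -0.96 ± 0.11 (SE). *Dnm1*, a dynamin of endocytosis, followed at 0.111 (log2 fold change -0.91), then the serotonin receptor gene *Htr2a* at 0.113 (-0.89), *Dscam* at 0.141 and *AW551984* at 0.144 (-1.03). *Dscam*, a cell adhesion gene, rested on 15, 11, 1 and 1 counts. Its fitted log2 fold change was -3.40, unlike that of *Gja1*, so at these low counts its short distance depends on the added 0.5. Within the set, *Tjp1* stood at rank 738 by this distance (0.673), *Gjb2* at 1874, *Gjc1* at 5972 and *Panx1* at 7663. With 4 libraries in 2 groups, many genes share such a pattern, and the distance is a description.

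Genes that build, modify or regulate gap junctions were then compared, as 115 genes in 9 lists. The lists were chosen with earlier results of these data known, and the p-values below do not allow for that choice. Of these, 95 could be tested and 0 were called between *Phf2* KO and WT at an adjusted p-value under 0.1, against 0.00732% of all genes tested. At an unadjusted p-value under 0.05, 3 lay above WT and 3 below it, against 1.54% and 2.67% of all genes tested. DESeq2 called *Junb* higher and *Cav1* lower, against 0.4% of the genes to which it gave an adjusted p-value. With limma-voom, 0 were called. The median log2 fold change of the 95 was -0.00, with 47 above 0 and 48 below. The edgeR test held no term for replicate number. With that number as a block it called some of the 95, as given in the last paragraph.

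Of the 4 caveolar genes tested, *Cav1*, whose product forms caveolae and binds the *Gja1* connexin, had the largest difference. It had 1797 and 1671 counts in the WT libraries against 790 and 1045 in *Phf2* KO, and both *Phf2* KO libraries were lower. The log2 fold change was -0.77 ± 0.12 (SE; unadjusted p = 0.0022 and adjusted p = 0.999 by edgeR). The other 3 (*Cav2*, *Ptrf* and *Prkcdbp*, which encode further parts of the caveolar coat) lay between -0.13 and -0.06, and their groups overlapped.

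Among 20 transcription factors known for the *Gja1* promoter, the AP-1 genes *Junb* and *Fos* had the highest values. *Junb* had 850 and 944 counts in the WT libraries against 1156 and 1208 in *Phf2* KO, a log2 fold change of 0.57 ± 0.10 (SE; unadjusted p = 0.0032 and adjusted p = 0.999 by edgeR). *Fos* was counted 468, 423, 583 and 612 times, with 0.59 ± 0.14 (SE; unadjusted p = 0.0097 by edgeR). The oestrogen receptor gene *Esr1* was counted 232, 228, 105 and 152 times, with -0.69 ± 0.19 (SE; unadjusted p = 0.0168 by edgeR), and the muscle factor gene *Mef2c* had -0.39. *Sp1*, named after its value was seen, was counted 1649, 1528, 1098 and 1162 times, with -0.33 ± 0.12 (SE; unadjusted p = 0.039 by edgeR). Over the list, 13 genes lay above 0 and 7 below, with a median of 0.06.

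The 14 kinases and phosphatases of the *Gja1* connexin had a median log2 fold change of 0.01, with *Csnk1e* highest (0.29), then *Prkcd* (0.08), and *Ppp2ca* (-0.21) and *Prkca* (-0.20) lowest. The 17 genes of connexin trafficking and turnover had a median of -0.00. The ubiquitin ligase gene *Wwp1* (-0.28 ± 0.35, SE) and the endocytic adaptor gene *Eps15* (-0.14 ± 0.19, SE) were lowest there, within their errors. The actin binding genes *Dbn1* (0.18 ± 0.12, SE) and *Ezr* (0.12 ± 0.10, SE) were highest. Of 11 adherens junction and desmosome genes, *Pkp4*, of the catenin family, had the highest value, with 2129 and 2103 counts in WT against 2269 and 2621 in *Phf2* KO. Its log2 fold change was 0.37 ± 0.083 (SE; unadjusted p = 0.0083 and adjusted p = 0.999 by edgeR). The ankyrin gene *Ank3* followed (0.29 ± 0.11, SE). The desmosomal gene *Dsp* (-0.34 ± 0.73, SE) and the cadherin gene *Cdh11* (-0.09 ± 0.11, SE) were lowest, within their errors. The 11 tight junction scaffold genes had a median of -0.05, with *Inadl* at -0.11, *Mllt4* at 0.19 and *Magi1* highest at 0.25. Of the further large-pore channels, *Calhm2* had -0.10, *Fam26e* -0.22 and *Fam26f* -0.31. Of 13 purinergic genes, the ADP receptor gene *P2ry1* (61, 64, 33 and 40 counts) had -0.62 ± 0.23 (SE) and the ectonucleotidase gene *Entpd2* -0.55 ± 0.24 (SE). The highest were *P2ry12* (0.25 ± 0.98, SE) and *P2rx7* (0.20 ± 0.88, SE), whose values were smaller than their errors.

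**Figure D4:**
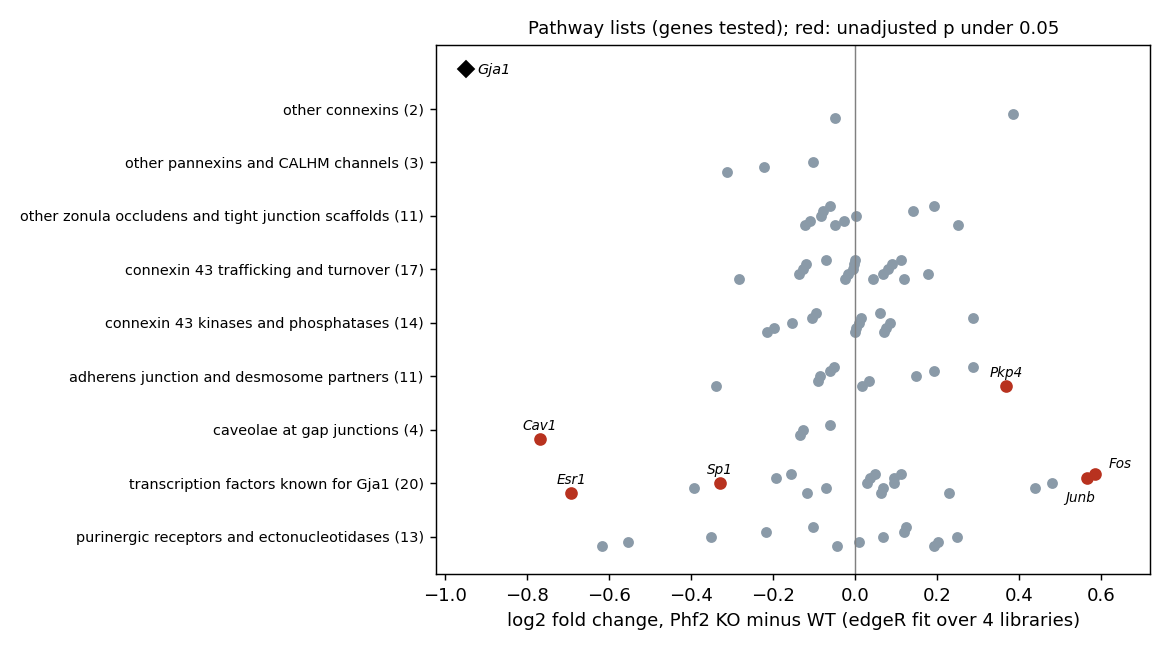
Log2 fold change between *Phf2* KO and WT of each tested gene in the 9 pathway lists, from the edgeR fit over 4 libraries, with *Gja1* as a diamond at -0.95. The 6 genes in red had an unadjusted p-value under 0.05 and 0 were called after adjustment. *Gja1* belongs to the set chosen on this contrast, so its place below the 95 is a description.

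The replicate numbers gave a contrast that the choice of the set did not use, and in it the 5 genes could be tested. Of these, 1 was called, *Panx1*, against 10.6% of all genes tested. Its level was 13.3 CPM in both libraries numbered 1 and 9.65 ± 0.238 (SD, n = 2) CPM in those numbered 2. The log2 difference of replicates 2 from replicates 1 was -0.46 ± 0.13 (SE; edgeR adjusted p = 0.0875). This call was near the threshold: the adjusted p was 0.101 with library size alone and 0.250 with DESeq2, and 0.0052 with genotype as a further term, the range over the alternatives run. The others had log2 differences of 0.22 for *Gjc1* (edgeR adjusted p = 0.376), -0.17 for *Gjb2* (0.883), -0.11 for *Gja1* (0.909) and 0.00 for *Tjp1* (0.991). This test held no term for genotype, so the group differences of *Gja1* and *Tjp1* widened their errors. With genotype as a further term, the SE of *Gja1* was 0.083 instead of 0.355. The edgeR adjusted p was then 0.395 for *Gja1*, 0.964 for *Tjp1*, 0.212 for *Gjc1* and 0.811 for *Gjb2*, all above the threshold.

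Purinergic genes encode receptors for nucleotides and adenosine and the enzymes that break nucleotides down outside the cell, and some differed between the replicate numbers too. Of 13 tested, 6 were lower in replicates 2 and 0 higher, against 7.33% and 3.24% of all genes tested, with a median log2 difference of -0.58. The ATP-gated channel gene *P2rx7* was counted 204 and 195 times in replicates 1 and 53 and 65 times in replicates 2 (log2 difference -1.91, edgeR adjusted p = 0.0016). *P2rx4*, of the same family, was counted 3003 and 2819 against 2382 and 2397 times (-0.44, edgeR adjusted p = 0.0300). The ectonucleotidase gene *Entpd1* was counted 1056 and 868 against 215 and 306 times (-2.03, edgeR adjusted p = 0.0009). *P2ry6*, *P2ry12* and *P2ry14* were the others called.

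The 12 macrophage markers were all higher in replicates 1, with a median log2 difference of -2.05. All 12 were called lower in replicates 2, against 7.33% of all genes tested. None of the 12 had groups that stood apart between *Phf2* KO and WT. Their part in the differences of *Panx1* and the purinergic genes was not tested. The smooth muscle markers had a median of 0.70, and 5 were called higher and 1 lower in replicates 2. The 2 chondrocyte markers that could be tested were both called higher, led by *Col2a1*. Over all genes tested, 3.24% were called higher and 7.33% lower in replicates 2. The 6 chondrocyte markers summed to 5.14 and 6.56 CPM in replicates 1 against 30.8 and 35.2 CPM in replicates 2. Of the remaining pathway genes, *Tjp3*, *Wwp1* and *Irx3* were called lower, and *Fam26e*, *F11r*, *Dsp*, *Ptrf* and *Tbx2* higher, in replicates 2.

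**Figure D5:**
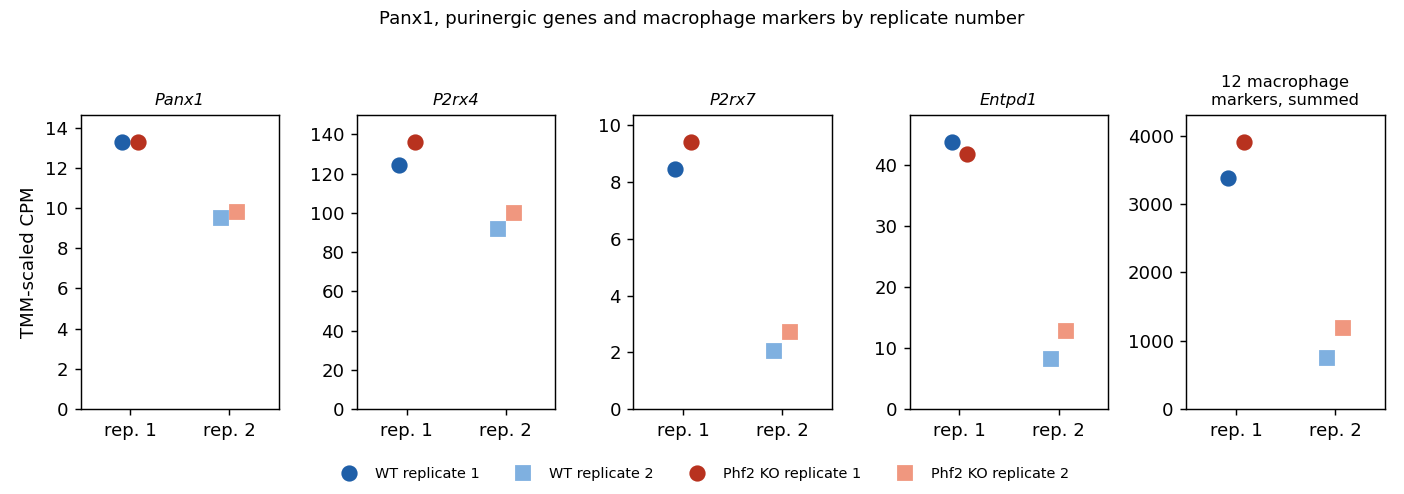
TMM-scaled CPM of *Panx1*, 3 purinergic genes and the sum of 12 macrophage markers in each library, ordered by replicate number, each panel from 0 on its own linear axis. In every panel both libraries numbered 1 lay above both numbered 2, and for *Panx1* the values were 13.3 and 13.3 against 9.48 and 9.82 CPM.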

How the data were processed

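RNA-seq of 2 WT and 2 *Phf2* KO MEF libraries (single reads of 50 nt, poly(A) RNA) was analysed from the gene counts that the authors deposited, which are whole numbers without normalization. Per the study's methods, the authors used Trim Galore for trimming, Bowtie2 against ribosomal RNA, STAR (set to reverse stranded) for alignment to mm9, and featureCounts for counting. Versions, the annotation and the strand setting of the counting are not given in the sources used here. A deposited table of the authors' own DESeq2 comparison (fold changes, p-values) was not used.

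Counts were analysed with edgeR 4.0.16 in R 4.3.3. Genes were kept with filterByExpr (13668 of 24391), libraries were scaled with TMM (factors 0.983 to 1.01), and genotype or replicate number was tested as the only term with the quasi-likelihood test. P-values were adjusted by Benjamini-Hochberg over all genes tested and called under 0.1. The test was tried on simulated data first. Those data had less spread between libraries than these and no difference between replicate numbers. The trial therefore does not show what could be detected here. DESeq2 1.42.0, limma 3.58.1 and other scalings, filters, thresholds and designs were alternatives. Ratios within a replicate number and distances to *Gja1* are of log2(CPM + 0.5). Shares carry Wilson intervals (SciPy 1.17.1).

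Exon lengths, positions and overlaps came from a GENCODE annotation of mm9. Of the 50-base windows of the 8 genes, 0 occurred in transcripts of another coding gene. *Calhm5*, *Calhm6*, *Patj*, *Afdn*, *Cavin1* and *Cavin3* are named in the table as *Fam26e*, *Fam26f*, *Inadl*, *Mllt4*, *Ptrf* and *Prkcdbp*. The 8 genes and all lists (9 of pathway genes, 9 of cell type markers) were chosen with earlier results of these data known. Named are the 8 genes, *Phf2*, other connexins and pannexins with a count, the highest and lowest 2 and the called genes of each pathway list, the 5 genes nearest to *Gja1*, and leading markers, except some genes that are not reported here.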

Additional observations from a re-analysis of the deposited data

How the results depend on the processing

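*Gja1* and *Tjp1* kept the direction of their difference between *Phf2* KO and WT in every alternative run, and so did *Panx1* between replicate numbers. Over the counts of calls, the shares, and the levels and *Phf2* KO differences of the 8 genes, 145 recomputed values stayed within their limits and 28 moved. Of the differences of the 5 tested genes between replicate numbers, 36 stayed and 3 lost a call, all of *Panx1*. In the contrast of *Phf2* KO with WT, DESeq2 called 10 genes up and 54 down, 1 and 1 of them on the pathway lists. limma-voom, a threshold of 0.05 and each library left out in turn called 0 lower and 0 higher, where an arm with 1 library was assumed to vary like the others (unadjusted, limma-voom gave 223 higher and 352 lower under 0.05). The difference of *Gjb2* ranged from -0.87 to 0.025 with each library left out, that of *Panx1* from -0.21 to 0.29 and that of *Gjc1* from -0.16 to 0.10. The mean level of *Gja1* ranged from 24.8 to 31.5 CPM per kb and that of *Tjp1* from 10.9 to 11.7. With the longest transcript as length, *Tjp1* was at 11.8 and *Gjc1* at 4.51 CPM per kb, above *Panx1* at 4.25. Between replicate numbers, 443 genes were higher and 1002 lower in replicates 2. A threshold of 0.05 gave 211 higher, and genotype as a further term gave 1717 higher and 1863 lower. *Gja4* was called higher in replicates 2 when all genes with at least 1 count were tested. Causes were not tested. Depth limits *Gja4*, *Gja5* and *Panx3*, whose counts were near the 3 taken as detectable.

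The labels do not say that libraries of a number are a pair, and 2 pairs are too few to settle it. The difference between replicates correlated between the groups across 13668 genes, which are not independent (Pearson's r = 0.809). With the replicate number as a block, the same contrast gave 789 genes up and 711 down, 1500 of 13668 tested, with 7 and 8 from the pathway lists, among these *Cav1*, *Esr1*, *Sp1*, *Junb*, *Fos* and *Pkp4*. Of the 8 genes, *Gja1* and *Tjp1* were called in that fit, with log2 fold changes of -0.95 and -0.28. The set was chosen on this contrast, so nothing is read from these calls.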
